A study of Rattus norvegicus with 18 samples.

Results

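The transcripts described here are those of the heat shock response and the unfolded protein response. They were taken from the RNA table by exact name from a list of 38 heat shock, chaperone and unfolded protein response genes, of which 37 were present among the table's 28909 genes. HSPA1B was the one name not found. Names are given as the table spells them, in capitals. The libraries came from ventricular cardiomyocytes of 1-day-old wild-type Sprague-Dawley rats. The hearts were digested, faster-attaching cells were removed by a short plating step, and the rest were kept on collagen and then in low-serum medium. Of these cultures, 3 libraries were from cells given blebbistatin, which blocks the ATPase of myosin II, and 3 from cells given its solvent DMSO, each for 0.5 h. The dose is 25 µM in the treatment labels, while the series' design text also gives 0.25. The labels do not say how many animals or separate preparations lie behind the 3 libraries of a group, so the p-values below reflect the spread among these 3 and 3 libraries, which may be technical. The chromatin samples are not analysed here.

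Cells meet misfolded protein with separate gene programs in separate compartments. In the cytosol, unfolded protein draws HSP70 and HSP90 away from heat shock factor 1, which then binds heat shock elements and switches on chaperone genes. In the endoplasmic reticulum (ER), the sensors IRE1, PERK and ATF6 raise ER chaperones and degradation factors, and PERK also raises ATF4 and, through it, DDIT3 and TRIB3. In heart muscle, small heat shock proteins and the co-chaperone BAG3 also guard the contractile filaments, which are under constant mechanical load.

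Promoter windows were searched for the elements by which these responses are known. RefSeq windows of the GRCr8 assembly, running from 250 bases before to 50 bases after an annotated start, were held for 31 of the 37 genes. A heat shock element, spelled GAANNTTCNNGAA or TTCNNGAANNTTC and searched on both strands, was found in 5 of the 31 windows, or 16.1%, against 0.798% of 33469 windows of all genes. These were the windows of HSPA8, HSPH1, HSPD1, HSPE1 and DNAJA1. The windows of HSPA1A and DNAJB1 held no match to this spelling. No window was held for HSF1, HSPB2, HSP90AA1, DNAJB4, PDIA3 and ATF6. The ER stress response element, spelled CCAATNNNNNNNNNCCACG and also searched on both strands, was found in another 5, or 16.1%, against 0.0657% of all windows. They belong to HSPA5, HSP90B1, CALR, CANX and XBP1. Of the other motifs searched, the unfolded protein response element TGACGTGG was in 1 window (BAG3, 0.595% of all windows), the C/EBP-ATF element TGATGCAA or TGATGAAA in 2 (HSPA9 and HERPUD1, 1.91%), and the cyclic AMP response element TGACGTCA in 1 (HSP90AB1, 1.83%). The stretches around the matches, except that of DNAJA1, which lies within the transcript, are shown because they hold the letters through which the 2 responses are known to act on such genes. Each is written 5′ to 3′ on the strand of its gene, with the matched letters in capitals.
HSPA8, heat shock elements, chr8:50080289-50080483, plus strand: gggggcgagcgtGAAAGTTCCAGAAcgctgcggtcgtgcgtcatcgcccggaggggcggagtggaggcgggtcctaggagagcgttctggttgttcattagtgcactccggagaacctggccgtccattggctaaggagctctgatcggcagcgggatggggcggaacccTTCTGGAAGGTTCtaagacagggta
HSPH1, heat shock element, chr12:10427302-10427374, plus strand: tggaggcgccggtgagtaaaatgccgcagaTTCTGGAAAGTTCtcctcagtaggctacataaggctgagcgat
HSPD1, heat shock element, chr9:64084250-64084287, minus strand: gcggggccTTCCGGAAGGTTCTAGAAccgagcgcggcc
HSPE1, heat shock element, chr9:64084242-64084299, plus strand: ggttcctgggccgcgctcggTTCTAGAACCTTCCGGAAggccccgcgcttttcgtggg
HSPA5, ER stress response element, chr3:38452953-38453011, plus strand: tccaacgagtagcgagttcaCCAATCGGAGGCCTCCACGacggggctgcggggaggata
HSP90B1, ER stress response elements, chr7:23012335-23012481, minus strand: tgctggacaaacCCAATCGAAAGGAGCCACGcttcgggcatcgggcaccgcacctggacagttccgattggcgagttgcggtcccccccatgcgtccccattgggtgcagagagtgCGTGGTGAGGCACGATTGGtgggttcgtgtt
CALR, ER stress response element, chr19:40213117-40213171, plus strand: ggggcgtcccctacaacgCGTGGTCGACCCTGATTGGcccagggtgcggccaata
CANX, ER stress response element, chr10:35158051-35158105, minus strand: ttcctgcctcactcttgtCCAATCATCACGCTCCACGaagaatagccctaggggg
XBP1, ER stress response element, chr14:84604538-84604596, plus strand: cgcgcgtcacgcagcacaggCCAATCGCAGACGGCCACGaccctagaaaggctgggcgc

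HSPD1 and HSPE1 share a single element, read from opposite strands: the coordinates of their 2 windows overlap, and the capitals are each other's reverse complement. In each, 2 matches to the spelled motif overlap, so the capitals form 1 run. HSPA8 and HSP90B1 each hold 2 matches that do not overlap. A match says only that these letters are in the window.

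**Figure D1:**
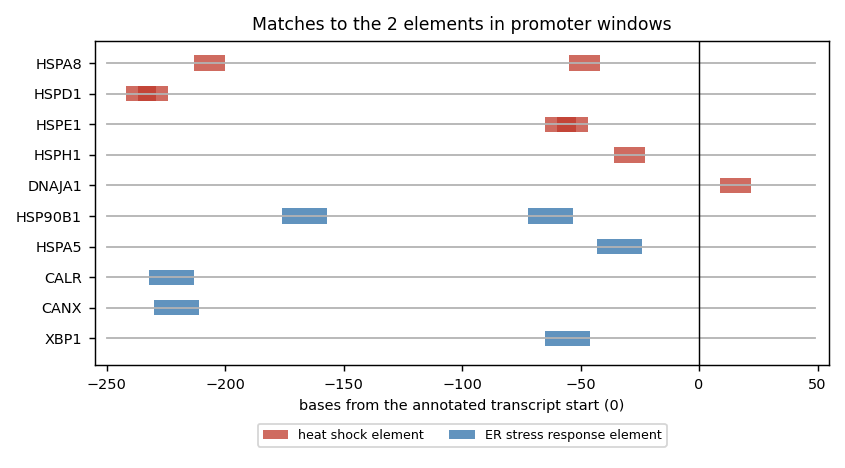
Positions of the matches in the 10 windows that hold either element, in bases from the annotated transcript start at 0. Red bars are heat shock elements and blue bars ER stress response elements. The bars of HSPA8 and HSP90B1 number 2 each, and the DNAJA1 match lies after the start.

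Levels are in CPM, a gene's reads scaled to the same total for each library. The smallest step between values puts the depth at 59.6 to 63.2 M reads. A count of 3 reads corresponds to 0.0474 to 0.0503 CPM, and every member was at 7.41 CPM or more in every library. In these bulk libraries, fewer cells of a type and less RNA per cell cannot be told apart. Markers of cardiomyocytes and of other heart cells were both present. The 14 cardiomyocyte markers in the table were above 1 CPM in every library, with a summed level of 27330 to 29590 CPM with blebbistatin and 27730 to 32140 CPM with DMSO. All 11 fibroblast markers were also above 1 CPM, with sums of 40940 to 46140 CPM with blebbistatin and 41180 to 47610 CPM with DMSO. No marker on these lists was at 0 in all 6 libraries. Macrophage and leukocyte markers summed to 180.9 to 205.3 CPM with blebbistatin and 96.2 to 200.6 CPM with DMSO. DMSO replicate 1 stood apart, at 77.4 on a first principal component carrying 42.1% of the variance, against -34.6 to 3.04 for the other 5 libraries. Its sum of cardiomyocyte markers was the highest, 32140 CPM. Its sum of smooth muscle and pericyte markers was the lowest, 4558 CPM against 5248 to 5940 CPM in the other libraries. It also had the lowest sum of macrophage markers and the highest of red blood cell markers, 184.9 CPM against 60.0 to 69.6 CPM elsewhere. Their part in the members' values was not tested. Fold changes are therefore also given without this library, for every member in the plot of fold changes and in the text for those it moved most.

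No heat shock or unfolded protein response transcript passed the test after 0.5 h of blebbistatin. Of the 37 members, 0 were called by limma at a Benjamini-Hochberg adjusted p under 0.05, where 3 of all 15204 genes tested were called (0.0197%). None reached an unadjusted p under 0.05, where 231 of all genes did (1.52%). For no member did the 3 blebbistatin libraries lie all above or all below the 3 DMSO libraries, while this held for 6.13% of all genes, 3.24% above and 2.89% below. The members' log2 fold changes, blebbistatin over DMSO, ran from -0.31 to 0.63 with a median of -0.027, beside 0.004 for all genes tested. They were positive for 17 and negative for 20. Their median size regardless of sign was 0.08, against 0.149 for all genes tested. The median standard error was also smaller, 0.144 against 0.219. Every member was at 7.41 CPM or more, while a gene was tested where 3 libraries reached 0.162 CPM. The part of level in these differences was not tested. The lowest limma adjusted p of any member was 0.991.

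The 95% interval of the fold change lay within 2-fold in either direction for 33 of the 37 members (71.9% of all genes). It lay within 1.5-fold for 28 of them (39.8% of all genes). The 4 with intervals reaching beyond 2-fold were HSPB2, HSPB3, HSPE1 and DDIT3. The width of an interval follows its standard error, and the members' median standard error was smaller than that of all genes. Without DMSO replicate 1 the intervals of all 37 lay within 2-fold and those of 33 within 1.5-fold. The sign of the fold change turned for 17 of the 37 members without that library, and for 36.8% of all genes. The median was then -0.031. Limma called 0 members without that library (0.0395% of all genes), with 1 at an unadjusted p under 0.05 (1.58% of all genes). The groups then no longer overlapped for 5 members (12.1% of all genes). These were XBP1, higher with blebbistatin, and HSPA1A, DNAJB4, HSPA5 and PDIA4, lower.

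Leaving out any other library also called 0 members. The number whose groups did not overlap was 5 without blebbistatin replicate 1 (12.5% of all genes), 3 without blebbistatin replicate 2 (14.7%) and 1 without blebbistatin replicate 3 (12.1%). It was 2 without DMSO replicate 2 (12.2%) and 5 without DMSO replicate 3 (22.6%). No member reached an unadjusted p under 0.05 without blebbistatin replicate 1 (1.33% of all genes), blebbistatin replicate 2 (1.12%), blebbistatin replicate 3 (0.888%) or DMSO replicate 2 (1.43%). Without DMSO replicate 3 there were 2, HSPE1 and DDIT3, both higher with blebbistatin, where 6.08% of all genes were under 0.05.

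**Figure D2:**
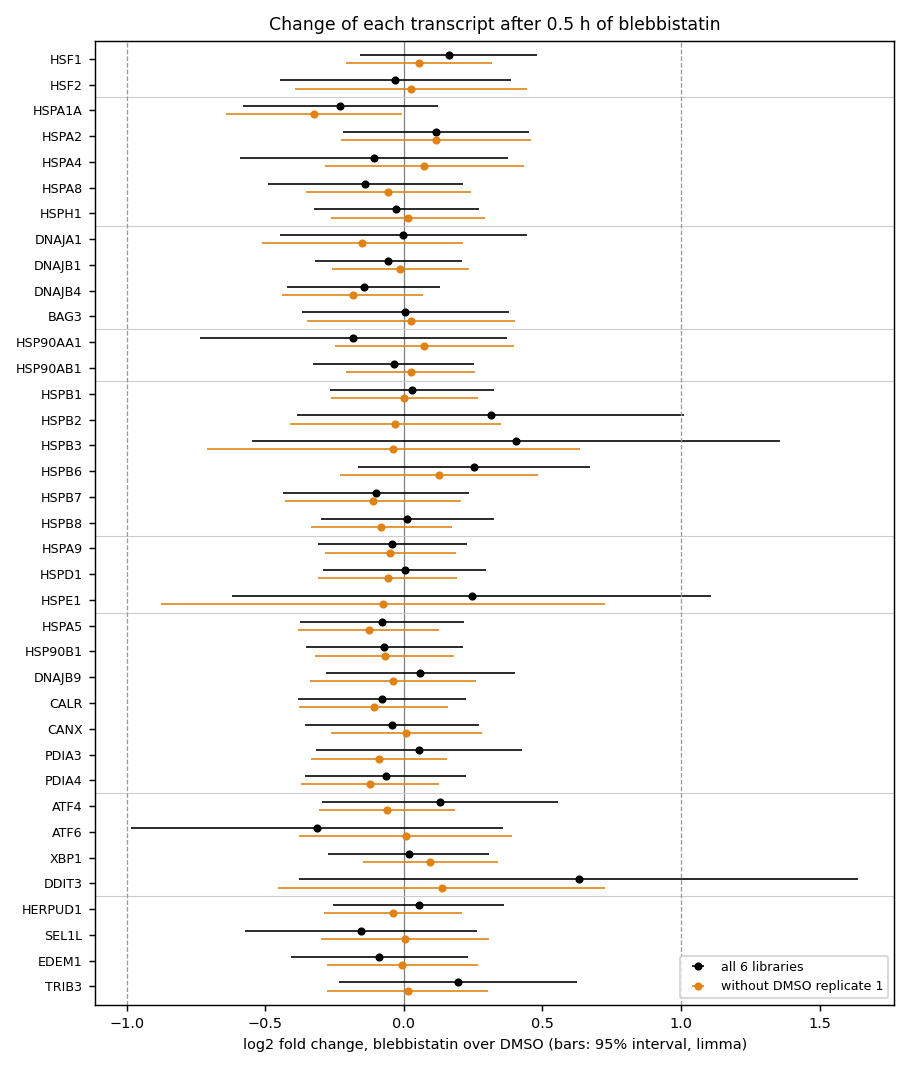
Log2 fold change of each transcript, blebbistatin over DMSO, with 95% intervals from limma, from all 6 libraries (black) and without DMSO replicate 1 (orange); dashed lines mark 2-fold. Black bars cross a dashed line for HSPB2, HSPB3, HSPE1 and DDIT3, and no orange bar does.

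The inducible HSP70 gene HSPA1A, the transcript that heat shock raises most sharply in many cells, had the lowest p of the set. It was at 22.2, 19.0 and 23.8 CPM with blebbistatin and at 20.3, 26.8 and 27.6 CPM with DMSO. The groups overlapped through DMSO replicate 1, the lowest of the controls. After scaling it averaged 21.4 ± 2.20 CPM with blebbistatin and 25.1 ± 2.83 CPM with DMSO (SD, n = 3 each). Limma gave a log2 fold change of -0.23 ± 0.15 (SE), an adjusted p of 0.991 and a 95% interval of 0.668 to 1.09-fold. A rise of HSPA1A beyond 1.09-fold lay outside this interval. Without DMSO replicate 1 the log2 fold change was -0.33, with an unadjusted limma p of 0.0456 and an adjusted p of 1.00. HSPA1A is uncertain in these data. RefSeq gives it HSPA1B as a synonym, lists HSPA1B as a gene of its own as well, and places HSPA1L over part of it. HSPA1B had no row, so the values of HSPA1A may hold reads of both.

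The other HSP70 and HSP110 genes lay close to no change. HSPA8, the constitutive HSP70 that clears clathrin coats and folds new protein, had 1033, 1186 and 960.1 CPM with blebbistatin and 1196, 1141 and 1063 CPM with DMSO. As deposited, the blebbistatin libraries spanned a wider range, which took in 2 of the 3 DMSO values. After scaling the spreads were alike, with an SD of 126.9 CPM with blebbistatin and 126.5 CPM with DMSO. Its log2 fold change was -0.14 ± 0.15, and -0.056 without DMSO replicate 1. HSPA2, an HSP70 best known from the testis, was at 26.2, 25.8 and 33.3 CPM with blebbistatin and at 23.9, 25.8 and 26.5 CPM with DMSO (log2 fold change 0.11 ± 0.14). Blebbistatin replicate 3 stood above the other 5 libraries. The HSP110 genes HSPA4 and HSPH1, nucleotide exchange factors that reset HSP70, had log2 fold changes of -0.11 ± 0.21 and -0.027 ± 0.13. HSPA4 was highest in DMSO replicate 1 and stood at 0.074 without it.

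Among the J proteins, which hand clients to HSP70, DNAJB1 is the one most closely tied to heat shock factor 1. It was at 64.7, 59.3 and 60.3 CPM with blebbistatin and at 62.1, 60.2 and 64.3 CPM with DMSO. The groups lay on top of each other, and the highest library exceeded the lowest by 1.09-fold as deposited. Its log2 fold change was -0.056 ± 0.11, and its 95% interval ran from 0.80 to 1.16-fold. DNAJB4, another J protein, was at 115.7, 106.0 and 100.9 CPM with blebbistatin and at 102.8, 118.7 and 126.2 CPM with DMSO. DMSO replicate 1 was again the lowest control and fell among the treated libraries. The log2 fold change was -0.14 ± 0.12, and -0.18 without that library. DNAJA1, whose window holds a heat shock element, had a log2 fold change of -0.0015 ± 0.19, and BAG3, the partner of HSPB8 in clearing damaged filament protein, one of 0.0052 ± 0.16. Without DMSO replicate 1 the value of DNAJA1 was -0.15.

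The stress-inducible cytosolic HSP90 gene HSP90AA1 was at 342.7, 429.2 and 367.6 CPM with blebbistatin and at 561.0, 385.0 and 337.4 CPM with DMSO. The control spread was the wider, because DMSO replicate 1 lay far above the rest. The log2 fold change of -0.18 ± 0.24 became 0.074 without that library. Its constitutive partner HSP90AB1 was between 1882 and 1912 CPM with blebbistatin and between 1861 and 1940 CPM with DMSO, a 1.04-fold range over 6 libraries as deposited and 1.15-fold after TMM scaling. HSF1, the master factor of the heat shock response, was at 37.1, 34.8 and 36.8 CPM with blebbistatin and at 25.6, 33.8 and 36.2 CPM with DMSO. DMSO replicate 1 was the lowest library, and only DMSO replicate 3 lay within the treated range. The log2 fold change was 0.16 ± 0.14, and 0.055 without DMSO replicate 1. HSF2, a related factor, had a log2 fold change of -0.032 ± 0.18.

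**Figure D3:**
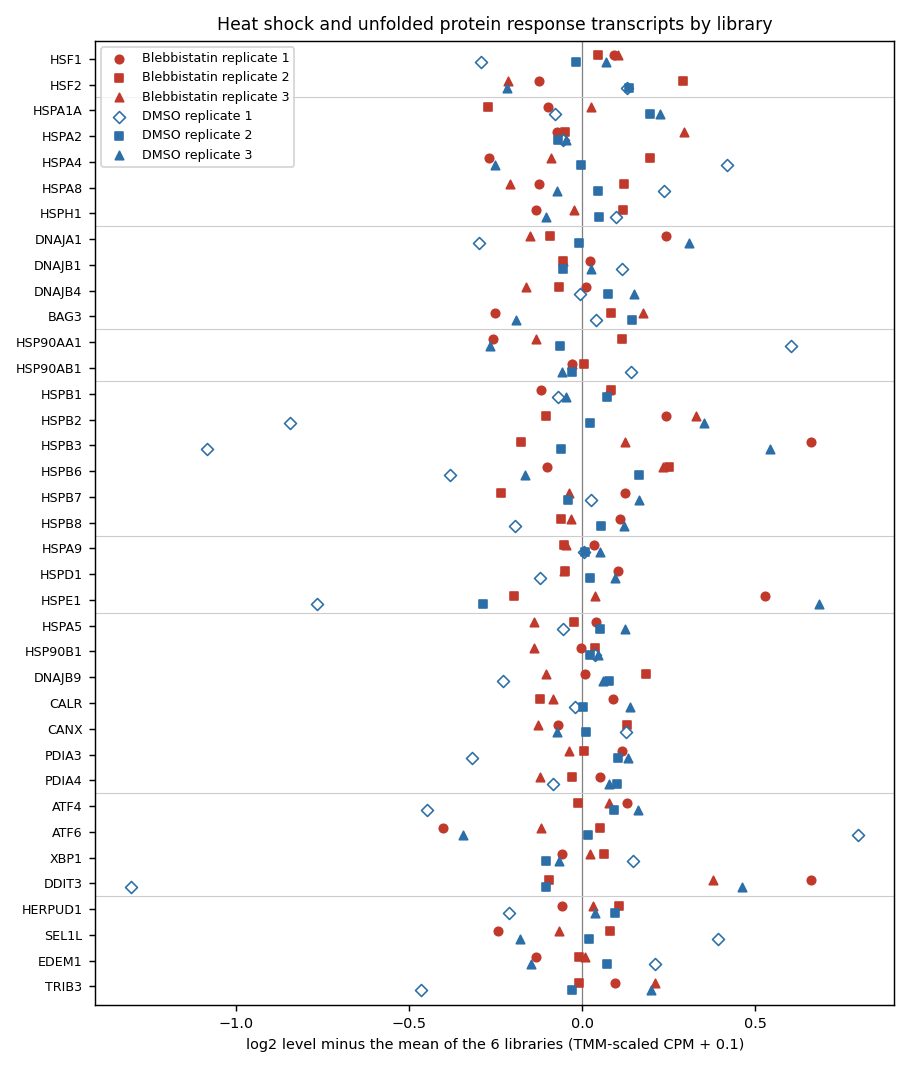
Level of each transcript in each library as a log2 difference from its mean over the 6 libraries (TMM-scaled CPM + 0.1), grouped by role, with blebbistatin in red and DMSO in blue. The open diamonds of DMSO replicate 1 lie farthest out for DDIT3, HSPB3, HSPB2 and ATF6, while red and blue points overlap in every row.

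The small heat shock proteins hold unfolding protein in a state from which it can be refolded, and several are muscle proteins. Of 6 members, 5 had positive fold changes with all libraries and 2 without DMSO replicate 1, and none passed the test. HSPB6, also called HSP20, was at 136.8, 169.1 and 170.0 CPM with blebbistatin and at 101.6, 161.7 and 130.1 CPM with DMSO. DMSO replicate 2 lay within the treated range and the other 2 controls below it. Its log2 fold change was 0.25 ± 0.18, and 0.13 without DMSO replicate 1. HSPB2, which sits beside CRYAB and overlaps it in RefSeq, was at 83.3, 63.4 and 87.1 CPM with blebbistatin and at 35.3, 70.2 and 89.2 CPM with DMSO. HSPB3, another small heat shock protein of muscle, was at 56.2, 30.4 and 38.1 CPM with blebbistatin and at 15.0, 33.4 and 51.4 CPM with DMSO. In both genes DMSO replicate 1 lay below every other library. The log2 fold changes of 0.31 ± 0.30 for HSPB2 and 0.40 ± 0.41 for HSPB3 became -0.031 and -0.038 without it. HSPB1 (also called HSP27), HSPB7 and HSPB8 had log2 fold changes of 0.029 ± 0.13, -0.099 ± 0.14 and 0.012 ± 0.13, and that of HSPB8 was -0.081 without DMSO replicate 1.

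The mitochondrial chaperones fold imported protein. HSPA9, or mortalin, had a log2 fold change of -0.042 ± 0.11. HSPD1 (HSP60) and HSPE1 (HSP10) form the folding chamber and its lid, and their windows hold the shared element shown above. HSPD1 had a log2 fold change of 0.0022 ± 0.13, with 357.6 to 411.6 CPM with blebbistatin and 317.0 to 405.3 CPM with DMSO. HSPE1 had 28.5, 16.6 and 19.9 CPM with blebbistatin and 10.4, 15.9 and 31.5 CPM with DMSO. Its highest values were in DMSO replicate 3 and blebbistatin replicate 1 and its lowest in DMSO replicate 1 (log2 fold change 0.24 ± 0.37). Without that library the values were -0.058 for HSPD1 and -0.076 for HSPE1. The RefSeq spans of HSPD1 and HSPE1 overlap, so reads at their shared end are uncertain.

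None of the 7 ER chaperones and folding enzymes passed the test. HSPA5, also called BiP, the ER HSP70 whose transcript is the usual readout of ER stress, was at 1551, 1437 and 1349 CPM with blebbistatin and at 1308, 1536 and 1631 CPM with DMSO. As deposited, the lowest and the highest library were both controls, but after scaling DMSO replicate 1 was no longer the lowest. Its scaled mean was 1426 ± 88.9 CPM with blebbistatin and 1507 ± 93.5 CPM with DMSO. The log2 fold change was -0.080 ± 0.13 and its 95% interval 0.770 to 1.16-fold. The ER HSP90 gene HSP90B1 (GRP94) had a log2 fold change of -0.071. CALR and CANX, lectins that hold new glycoproteins, had values of -0.079 and -0.043, and the disulfide isomerase PDIA4 one of -0.065. The isomerase PDIA3 and the ER J protein DNAJB9, an IRE1 and XBP1 target, had values of 0.055 ± 0.16 and 0.060 ± 0.15, which became -0.09 and -0.039 without DMSO replicate 1. The 5 genes whose windows hold the ER stress response element had log2 fold changes between -0.08 and 0.017, with a median of -0.071. The 5 with a heat shock element lay between -0.14 and 0.24, with a median of -0.0015. Without DMSO replicate 1 the ranges were -0.13 to 0.095 (median -0.069) for the genes with the ER element and -0.15 to 0.015 (median -0.058) for those with a heat shock element.

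Among the transcription factors of the unfolded protein response, XBP1, whose messenger RNA is spliced by IRE1, was at 105.7, 111.4 and 110.1 CPM with blebbistatin and at 109.9, 100.6 and 104.3 CPM with DMSO. The libraries lay within 1.11-fold of each other as deposited, and the table does not separate spliced from unspliced XBP1. The log2 fold change was 0.017 ± 0.12, and 0.095 without DMSO replicate 1. ATF6, the membrane-bound factor released by cleavage, was at 120.5, 159.8 and 144.6 CPM with blebbistatin and at 249.6, 158.4 and 124.5 CPM with DMSO. DMSO replicate 1 stood above all others, and the log2 fold change of -0.31 ± 0.29 became 0.0072 without it.

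The ATF4 branch holds DDIT3, the member with the widest spread between libraries. ATF4, the factor translated when eIF2 alpha is phosphorylated, was at 430.0, 377.5 and 408.3 CPM with blebbistatin and at 259.7, 411.6 and 436.5 CPM with DMSO. DDIT3, or CHOP, its target linked to cell death, was at 32.4, 18.5 and 26.2 CPM with blebbistatin and at 7.41, 18.7 and 28.0 CPM with DMSO. TRIB3, a pseudokinase that CHOP and ATF4 raise, was at 68.1, 61.4 and 72.7 CPM with blebbistatin and at 41.6, 61.4 and 72.8 CPM with DMSO. In all 3 genes DMSO replicate 1 was the lowest library. As deposited, the other 2 controls lay within the treated range, except that DMSO replicate 3 was slightly above it for ATF4 and TRIB3. The log2 fold changes of 0.13 ± 0.18, 0.63 ± 0.43 and 0.20 ± 0.18 became -0.062, 0.14 and 0.013 without DMSO replicate 1. DDIT3 had the largest fold change of the set and a 95% interval from 0.769 to 3.12-fold, and 0.731 to 1.65-fold without DMSO replicate 1. Its log2 fold change was 1.02 without DMSO replicate 3, with a limma adjusted p of 0.596, so leaving out 1 control moved it between 0.14 and 1.02. DDIT3 overlaps Mars1 in RefSeq and is uncertain for that reason.

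Genes of ER-associated degradation draw misfolded protein out of the ER. SEL1L, a scaffold of the HRD1 ubiquitin ligase, was at 254.4, 308.2 and 283.0 CPM with blebbistatin and at 356.5, 299.8 and 263.8 CPM with DMSO. DMSO replicate 1 was the highest library and the other controls lay within the treated range. Its log2 fold change was -0.15 ± 0.18, and 0.0039 without that library. HERPUD1, a ligase partner, and EDEM1, a lectin that picks misfolded glycoproteins, had log2 fold changes of 0.054 ± 0.13 and -0.088 ± 0.14, which became -0.039 and -0.0052 without DMSO replicate 1.

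DMSO replicate 1 differed from the other libraries in both directions among the members, and by less than among all genes. The median size of its log2 difference from the mean of the other 5 was 0.232 over the members and 0.411 over all genes tested, which reach lower levels than the members. It was the lowest or the highest of the 6 libraries for 23 members (68.3% of all genes), the lowest for 14 (34.6%) and the highest for 9 (33.7%). It differed by more than 0.5 on the log2 scale from that mean for 9 members, and for 41.7% of all genes. The 6 lower ones were DDIT3 (-1.56), HSPB3 (-1.30), HSPB2 (-1.01), HSPE1 (-0.92), TRIB3 (-0.56) and ATF4 (-0.54), and the 3 higher ones ATF6 (0.96), HSP90AA1 (0.73) and HSPA4 (0.50). Over the 37 members this difference rose with the length of the RefSeq gene span (Spearman's rho = 0.49), as it did over 12758 genes tested with a span (rho = 0.44). These are correlations across genes that share 1 library. The part of gene length in the members' values was not tested. Across the groups, blebbistatin replicate 1 and DMSO replicate 3 were the 2 highest libraries for 11 members (20.1% of all genes) and the 2 lowest for 7 (20.5%), a pairing looked for only once values were known.

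Other genes of the same pathways were read from 4 lists of 144 names, of which 138 were tested. Limma called 0 of them (0.0197% of all genes), with 1 at an unadjusted p under 0.05 (1.52% of all genes), and their median log2 fold change was 0.0081. That one was CEBPB, a transcription factor and partner of ATF4, at 83.4, 97.6 and 124.6 CPM with blebbistatin and at 50.7, 79.3 and 70.1 CPM with DMSO. Every treated library lay above every control, which also held for TRAP1, while EIF2AK3 and CALU lay below after scaling. These 4 genes are 2.90% of the 138, against 6.13% of all genes, and TRAP1 and CALU are named because of their values. The CEBPB log2 fold change was 0.58 ± 0.20, with an unadjusted limma p of 0.0219 and an adjusted p of 0.991, and 0.44 without DMSO replicate 1 (unadjusted p = 0.0388). Without that library 2 of the 138 genes were under 0.05 unadjusted (1.58% of all genes). The other was ATF3, a stress-induced transcription factor and ATF4 target, at 28.6, 24.7 and 24.1 CPM with blebbistatin and at 18.7, 32.9 and 41.5 CPM with DMSO. Its log2 fold change was -0.23 ± 0.25 with all libraries, and -0.52 with an unadjusted limma p of 0.00748 and an adjusted p of 1.00 without DMSO replicate 1, its lowest library. EIF2AK3, the gene of the sensor PERK, had, with all libraries, the next lowest p among the eIF2 alpha kinases and ATF4 targets. It averaged 35.2 ± 2.14 CPM with blebbistatin and 39.5 ± 1.17 CPM with DMSO, a log2 fold change of -0.16 ± 0.12.

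Of the 31 tested genes of the eIF2 alpha and ATF4 list, 15 had positive and 16 negative fold changes, with a median of -0.046. The counts were 23 and 27 among 50 ER genes (median -0.0057), 25 and 20 among 45 cytosolic chaperones (median 0.017) and 9 and 3 among 12 mitochondrial genes (median 0.085). Without DMSO replicate 1 the counts of positive and negative fold changes were 20 and 11 in the eIF2 alpha and ATF4 list (median 0.013), 18 and 32 among ER genes (-0.024), 21 and 24 among cytosolic chaperones (-0.00065) and 5 and 7 among mitochondrial genes (-0.024). The median changed sign in 3 of the 4 lists, the exception being the ER genes. The 2 genes of lowest p in each of the ER, cytosolic and mitochondrial lists were not called. Among ER genes, ERN1, which encodes the sensor IRE1, had a log2 fold change of -0.25 ± 0.19 and SSR4, a subunit of the translocon-associated complex, one of 0.31 ± 0.23, and without DMSO replicate 1 these were -0.11 and 0.046. Among cytosolic chaperones, DNAJB14 and HSBP1, a small protein that binds HSF1, had values of -0.29 ± 0.17 and 0.35 ± 0.27, and without that library -0.17 and 0.018. Among mitochondrial chaperones and proteases, the transcription factor ATF5 and the unfoldase CLPX had values of 0.16 ± 0.13 and 0.15 ± 0.12, and without it 0.087 and 0.12. YME1L1, a mitochondrial protease singled out because of its values, was listed at 0 in blebbistatin replicates 1 and 2 and at 70.5 CPM in replicate 3. With DMSO it was at 0.132, 74.6 and 58.8 CPM, so both groups held values at or near 0 and values above 50 CPM.

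**Figure D4:**
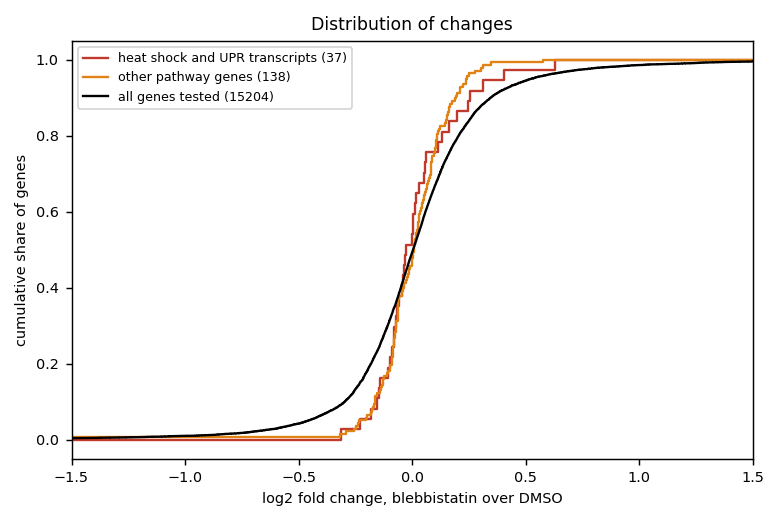
Cumulative share of genes against log2 fold change, blebbistatin over DMSO, for the 37 heat shock and unfolded protein response transcripts (red), 138 other pathway genes (orange) and all 15204 genes tested (black). The red steps run from -0.31 to 0.63 and cross the middle near 0, as the black curve does.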

How the data were processed

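RNA of 3 blebbistatin and 3 DMSO libraries was analysed. The values are CPM as deposited: the authors had scaled each column to the same total, although the file is named for counts. For RNA and chromatin samples together, the submitters' processing notes list rn6, MACS2 2.1.0, edgeR 3.20.9, StringTie 1.3.4 and HISAT2 2.1.0, beside Trim Galore and BWA. Annotation and strand setting are not given in the sources used here. Below 1.5 CPM, 97.2 to 97.6% of values are multiples, within 0.02, of 1 step per library, which gives the depth. Floors from it cover counting error only. Too many values were fractions of a step for whole reads to be recovered, so the planned count test was not run.

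A gene was tested where 3 or more libraries reached 0.162 CPM, the level of 10 reads at the median depth, with limma 3.58.1 in R 4.3.3. The fit used log2(CPM divided by an unweighted TMM factor + 0.1), trend and robust settings, no block, two-sided. Fold changes are on that scale, which understates changes of low genes. Single-library values are deposited CPM without further scaling, and means ± SD are TMM-scaled. The steps were tested on simulated data, with the same dispersion for every gene and no outlying library. What they can detect with a library like DMSO replicate 1 was not tested.

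The members, lists and tests were chosen with earlier results of these data known. Named genes are all members. Values by library are given for the 12 of lowest p and for the usual readouts HSPA1A, DNAJB1, HSP90AA1, HSPA5, XBP1, ATF4 and DDIT3. HSPA1B, also on that list of readouts, had no row. HSPE1, ATF3, TRAP1, CALU and YME1L1 were added after their values were seen. The 2 genes of lowest p are named from each other list. Gene names and overlaps come from the RefSeq GRCr8 table. There, 17 members overlap another listed gene, so reads at the overlap are uncertain for more members than those marked above. Among them are HSPB6 (with Lin37), PDIA3 (with Catsper2) and HSPA4 (with a pseudogene of Rps2). No library duplicates another: the smallest chi-square over any pair was 35.7 per degree of freedom. That pair was blebbistatin replicate 1 and DMSO replicate 3, from different groups. Within a group the smallest was 53.9, between blebbistatin replicates 2 and 3. Alternatives covered scaling, filter, pseudocount, the replicate block and leaving out each library.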

Additional observations from a re-analysis of the deposited data

How the results depend on the processing

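Limma called 0 members and 0 other pathway genes under every alternative run. Of 481 member fold changes under alternatives, 439 kept their direction and 42 turned, 37 of them on leaving out a library. Without further scaling, which put the median of all genes at 0.042, HSF2 (0.0073), HSPH1 (0.012), DNAJA1 (0.037) and HSP90AB1 (0.0019) turned positive. With RLE factors HSPD1 was at -0.00059. Library factors enter the fold change of every member almost alike, so a change of scaling can turn values near 0. Why others turned on leaving out a library was not tested.

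Leaving out 1 library in turn gave 3 to 6 genes called among all genes, 0 to 2 members at an unadjusted p under 0.05 and 1 to 5 members whose groups did not overlap. With fewer libraries more groups are apart by construction. Log2 fold changes that turned in at least 1 such fit had these ranges: ATF4 (-0.062 to 0.24), ATF6 (-0.56 to 0.0072), BAG3 (-0.088 to 0.13), CANX (-0.12 to 0.010), DNAJA1 (-0.15 to 0.15), DNAJB9 (-0.039 to 0.13), HERPUD1 (-0.039 to 0.11), HSF2 (-0.19 to 0.069), HSP90AA1 (-0.36 to 0.074), HSP90AB1 (-0.074 to 0.025), HSPA2 (-0.0021 to 0.18). The others were HSPA4 (-0.26 to 0.074), HSPB1 (-0.0050 to 0.093), HSPB2 (-0.031 to 0.57), HSPB3 (-0.038 to 0.78), HSPB8 (-0.081 to 0.077), HSPD1 (-0.058 to 0.051), HSPE1 (-0.076 to 0.65), HSPH1 (-0.092 to 0.030), PDIA3 (-0.090 to 0.14), SEL1L (-0.28 to 0.0039) and XBP1 (-0.032 to 0.095).

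The labels do not say whether the replicate numbers pair the samples. Between the blebbistatin and DMSO libraries sharing a replicate number, the deviations correlated at -0.29, 0.054 and -0.092. With 3 libraries in each group and DMSO replicate 1 standing apart, these values cannot decide whether the samples were paired. With the replicate block, limma called 2 genes in place of 3, and 0 members. The planned count test was not run. How depth limits precision beside the number of libraries was not tested.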

Other observations

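The members differed in how steady they were over the 6 libraries, whatever the group. As deposited, the ratio of the highest to the lowest library, in CPM, had a median of 1.37 over the 37 members and of 1.64 over all genes tested. All genes tested reach lower levels than the members, and the part of level was not tested. Among the members, the ratios were as follows. HSP90AB1 (1.04), DNAJB1 (1.09), XBP1 (1.11) and HSPA9 (1.14) had the lowest ratios. That order depends on the scaling: after TMM scaling HSPA9 was lowest (1.07), before DNAJB1 (1.13), HSP90B1 (1.14) and HSP90AB1 (1.15). DDIT3 (4.37), HSPB3 (3.74), HSPE1 (3.03), HSPB2 (2.53) and ATF6 (2.07) were the only ones above 2, as deposited and after scaling. DMSO replicate 1 was the lowest library for the first 4 of these 5 and the highest for ATF6.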
